A study of Mus musculus with 8 samples.

Results

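Respiratory complexes II to V are the protein machines of the inner mitochondrial membrane that carry electrons from succinate to oxygen and use the resulting proton gradient to make ATP. The genes described here are the nuclear genes of these complexes and of the electron carrier cytochrome c. They were chosen by name: the symbol had to be Sdha to Sdhd, Cyc1 or Cycs, or begin with Uqcr, with Cox and a number from 4 to 8, or with Atp5, and the gene had to reach the minimum level given below. Of 17597 genes in the deposited table, 13590 reached a mean count of 10 and are called expressed genes here, and 45 of these were chosen. They comprised 4 genes of complex II, 9 of complex III, 14 of complex IV, 17 of complex V and the gene of cytochrome c. A further 2 genes had a matching name and a lower level, namely Cox8c with a mean count of 8.82 and Cox4i2 with 3.94. The members nearest above the minimum were Cox7b2 with 44.8, Cox7a1 with 79.0 and Atp5s with 85.9.

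The RNA came from mouse embryonic stem (mES) cells of Cast x 129S background with an XX karyotype, in which METTL3, the catalytic subunit of the m6A writer complex, carried a C-terminal FKBP12 degron tag. There were 8 libraries in 2 groups of 4: untreated cells, and cells given dTAG-13, the small molecule that triggers degradation of the tagged protein, for 26 h. Each group held 2 replicates of each of 2 clones, C3 and H5. In every library a TetOn promoter replaced that of endogenous Xist on 1 allele, which the labels give as 129S and the study's text as Cast. No doxycycline was given, and the cells were grown on inactivated mouse fibroblast feeders. The values analysed were 1 mean per gene over all 8 libraries, so each level mixes untreated and dTAG-13-treated cells and carries no replicate error. No comparison of the groups was made, and differences between genes were described without a test. The depth of each library is unknown, and with libraries taken as equally deep the lowest member, Cox7b2, rests on about 358 reads, with a counting error of 5.28%.

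The cells showed the RNA of pluripotent cells. The mean count was 11934 for Pou5f1, 5933 for Nanog and 9104 for Zfp42. Of 8 fibroblast feeder markers, 7 reached a mean count of 10. The collagen genes Col1a1, Col1a2 and Col3a1 were at 19.8, 13.8 and 8.38, while Fn1 and Sparc were at 4941 and 3052 and the other 3 lay between 10.8 and 116. The part of feeder RNA in the levels of respiratory genes was not tested, and because the libraries are bulk samples, the number of cells and the RNA content per cell cannot be told apart.

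As background, complex II (succinate dehydrogenase) oxidises succinate and passes the electrons to ubiquinone, complex III (the cytochrome bc1 complex) passes them from ubiquinol to cytochrome c, complex IV (cytochrome c oxidase) passes them to oxygen, and complex V (ATP synthase) is driven by the proton gradient that the chain builds. Complex II is encoded wholly in the nucleus, whereas complexes III, IV and V each hold subunits encoded in mitochondrial DNA, so that their assembly draws on both genomes. Several subunits of complexes IV and V exist as paralogues with different tissue distributions. Pluripotent stem cells are known for active glycolysis beside respiration.

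The c subunits of complex V illustrate why these short genes were examined at the level of sequence. The genes are Atp5g1 (GRCm38 chromosome 11, positions 96068852 to 96075670), Atp5g2 (chromosome 15, 102662864 to 102672352) and Atp5g3 (chromosome 2, 73908447 to 73911326). Their RefSeq-paired coding parts are 408, 438 and 423 bases long without the stop codon. With the last codon set aside, the encoded precursors end in the same 77 residues, a stretch that covers most of the mature rotor-ring subunit. The 231 coding bases of these 77 residues, without the last codon, were alike in all 3 genes at 168 positions (72.7%) and differed at 63. The first 120 of these bases are shown, read from GENCODE vM21 transcripts paired with RefSeq, and capitals mark the positions at which the genes differ.
Atp5g1: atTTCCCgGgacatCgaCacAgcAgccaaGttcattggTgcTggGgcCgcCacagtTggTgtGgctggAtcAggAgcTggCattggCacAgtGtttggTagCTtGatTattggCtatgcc
Atp5g2: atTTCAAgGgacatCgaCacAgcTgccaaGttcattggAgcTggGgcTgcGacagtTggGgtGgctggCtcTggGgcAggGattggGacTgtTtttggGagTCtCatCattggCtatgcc
Atp5g3: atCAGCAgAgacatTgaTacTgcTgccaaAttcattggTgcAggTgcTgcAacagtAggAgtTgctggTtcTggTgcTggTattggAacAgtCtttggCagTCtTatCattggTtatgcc
Of the 63 differing positions in the whole stretch, 55 were the last base of a codon, so the differences leave the protein alike and break up any long common run. The longest run shared by the transcripts was 21 bases between Atp5g1 and Atp5g2, 11 between Atp5g1 and Atp5g3, and 9 between Atp5g2 and Atp5g3. Each is far shorter than the 81 bases of a sequenced read. Among the paralogues of complex IV the longest shared run ranged from 9 bases (Cox8a and Cox8c) to 14 bases (Cox4i1 and Cox4i2, and Cox6b1 and Cox6b2). The counts of paralogous subunits can therefore be told apart by exact sequence in these annotated transcripts.

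Near-identical copies elsewhere in the genome were a different matter. Each member's transcript was divided into all windows of 81 bases, and each window was looked up in the transcripts of every other annotated gene. Windows were shared with a gene at another locus in 17 members and not in the other 28. The shared sequence lay in 46 other genes, of which 29 were pseudogenes. Not all of these are near-identical copies. Atp5g1 alone had 17 partners, and of its 4635 windows it shared 304 with the pseudogene Gm10039 and at most 21 with any other gene. By complex, 0 of 4 genes of complex II, 3 of 9 of complex III, 5 of 14 of complex IV and 8 of 17 of complex V shared a window, as did cytochrome c. The share was 86.8% of windows for Atp5g2, 62.9% for Atp5l, 49.8% for Cox7c, 38.5% for Atp5h, 25.8% for Cycs and 25.5% for Uqcrb, and under 25% in the remaining 11. Atp5g2 alone shared 565 windows with the pseudogene Gm10175 and 361 with Gm10231. Cycs shared 785 windows with Gm10053. Of the 46 other genes 14 had a row in the table, most of them partners of Atp5g1 that shared at most 21 windows with it. Gm12338, a copy of Cox7c, also had a row, with a mean count of 194 beside 2538 for Cox7c. Since only uniquely placed reads were kept, the levels of the 6 genes with the largest shares are uncertain.

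**Figure D1:**
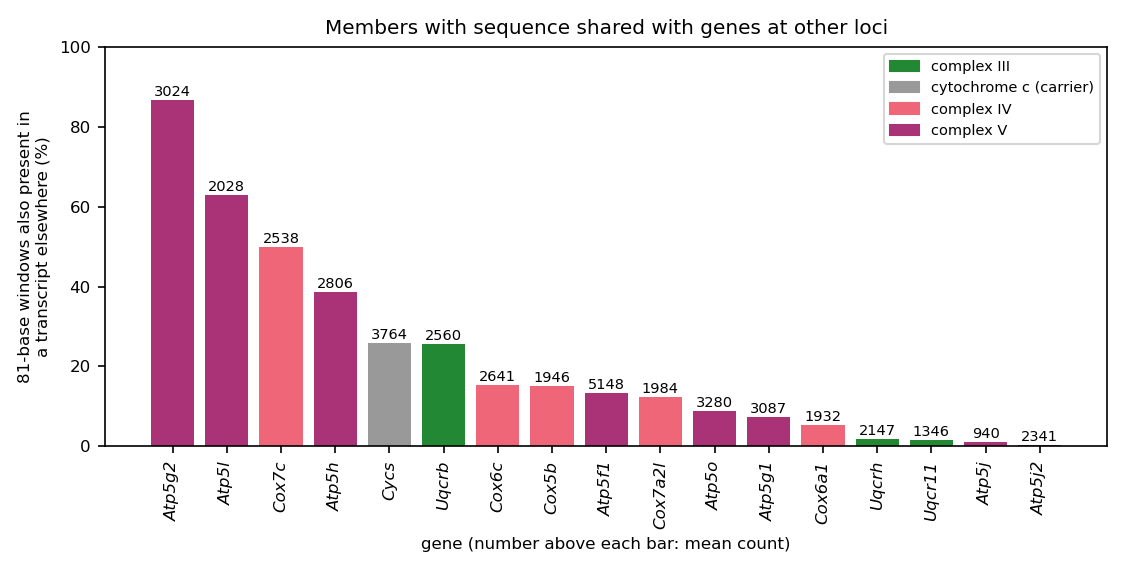
Share of the 81-base windows of a member's transcript that also occur in an annotated transcript at another locus (y axis, percent), for the 17 members that share any (x axis), coloured by complex, with the member's mean count above each bar. Atp5g2 stands highest at 86.8%, 5 further genes lie between 25.5% and 62.9%, and no gene of complex II appears.

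Exons of 9 members overlapped an exon of a gene on the opposite strand, and 5 of these (Atp5f1, Atp5j, Atp5l, Atp5o and Uqcrb) are also among the 17 with copies elsewhere. The share of such overlaps among all expressed genes was not measured. The overlap covered 504 bases of Uqcrc2 (with Pdzd9), 337 bases of Atp5f1 (with Wdr77), 182 bases of Atp5j (with Gabpa), 154 bases of Cox4i1 (with Emc8) and 129 bases of Atp5a1 (with Haus1). Cox5a overlapped Gm26631 over 269 bases, 41.7% of its transcript and the largest share of any member. The remaining overlaps were in Atp5l, Atp5o and Uqcrb. It is uncertain whether the counting used strand, and without it the reads of such pairs cannot be told apart within the overlap. Atp5o also overlapped a second record of the same name on the same strand, over 243 bases, which adds a limit to its level.

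Genes of complexes II to V were highly expressed as a group. Their median mean count was 2058, beside 373 over all expressed genes, and 35 of 45 reached 1000. Together they held 132271 of the mean counts, 0.908% of the sum over all genes, while making up 0.331% of genes above the minimum. The most abundant 2, Atp5b and Atp5a1, held 28.4% of that sum and the most abundant 10 held 55.7%. Cox7b2, Cox7a1, Atp5s and Cox6b2 had mean counts under 200. The members lay on 19 chromosomes, and Cox7b (chromosome X, 106015700 to 106022450) was the X-linked one.

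Read counts grow with transcript length, so levels were compared between genes only after division by length, on 2 scales. The all-exon scale divides the mean count by the summed length in kb of all annotated exons of the gene, which includes exons of rare and intron-retaining transcripts. The RefSeq scale divides by the exons of transcripts that GENCODE pairs with a RefSeq mRNA. The scales differed by more than 1.5 times for 22 members, and an order between genes is stated only where both give it. On the all-exon scale the median of the members was 1225 per kb, at the 95.4th percentile of all genes, and 44 of 45 exceeded the gene median of 81.2 per kb. On the RefSeq scale the median was 2485 per kb, at the 96.7th percentile, and 43 of 45 exceeded the gene median of 121 per kb. The top 10% of genes contained 33 members on the first scale and 37 on the second.

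**Figure D2:**
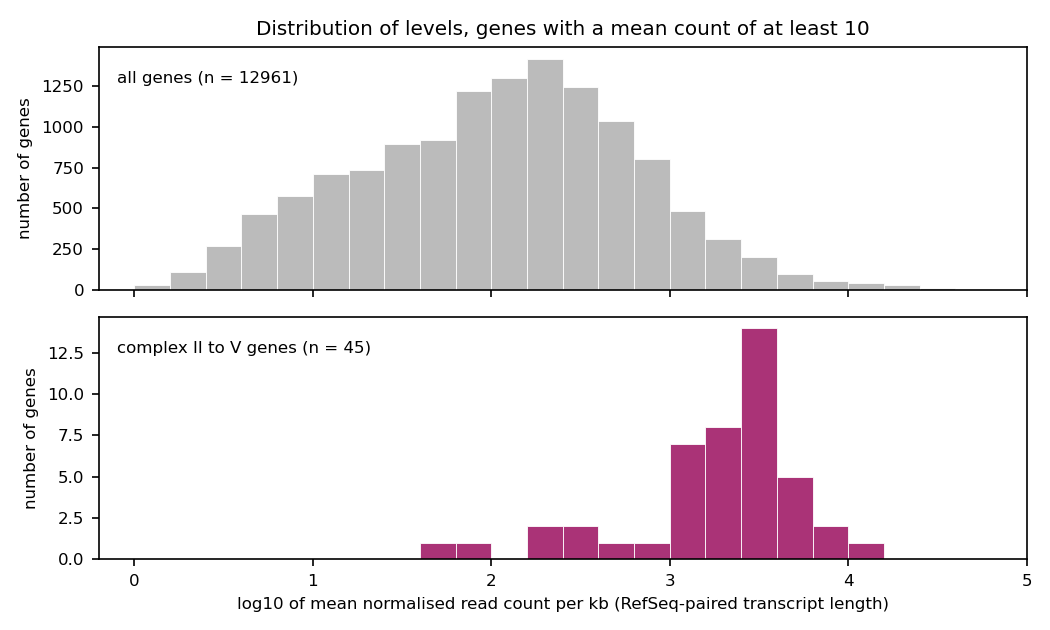
Number of genes (y axis) by log10 of the mean normalised read count per kb on the RefSeq scale (x axis), for all 12961 genes with a length on this scale and for the 45 members below. The members crowd at the high end, with a median of 2485 per kb against 121 per kb for all genes, and a small tail reaches down to 57.8 per kb.

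Other groups of nuclear genes for mitochondrial or abundant proteins gave a reference. The median level of 38 genes of complex I was 774 per kb on the all-exon scale and 1131 on the RefSeq scale, lower than that of the members on both. The 77 genes of mitochondrial ribosomal proteins had medians of 430 and 718 per kb, also lower. The 82 genes of cytosolic ribosomal proteins had medians of 4851 and 10037 per kb, higher on both scales. These are descriptions of 1 mean per gene, and the differences were not tested.

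The complexes differed in level, with wide overlap. On the all-exon scale the medians were 821 per kb for complex II, 1225 for complex III, 1691 for complex IV and 1109 for complex V. On the RefSeq scale they were 1298, 2485, 3153 and 2626 per kb in the same order. Complex II was lowest and complex IV highest on both scales, while complexes III and V changed places. Of the summed mean count of members, not divided by length, complex V held 53.9%, complex IV 22.3%, complex III 14.4%, complex II 6.52% and cytochrome c 2.85%. The F1 genes of complex V alone held 33.7%.

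**Figure D3:**
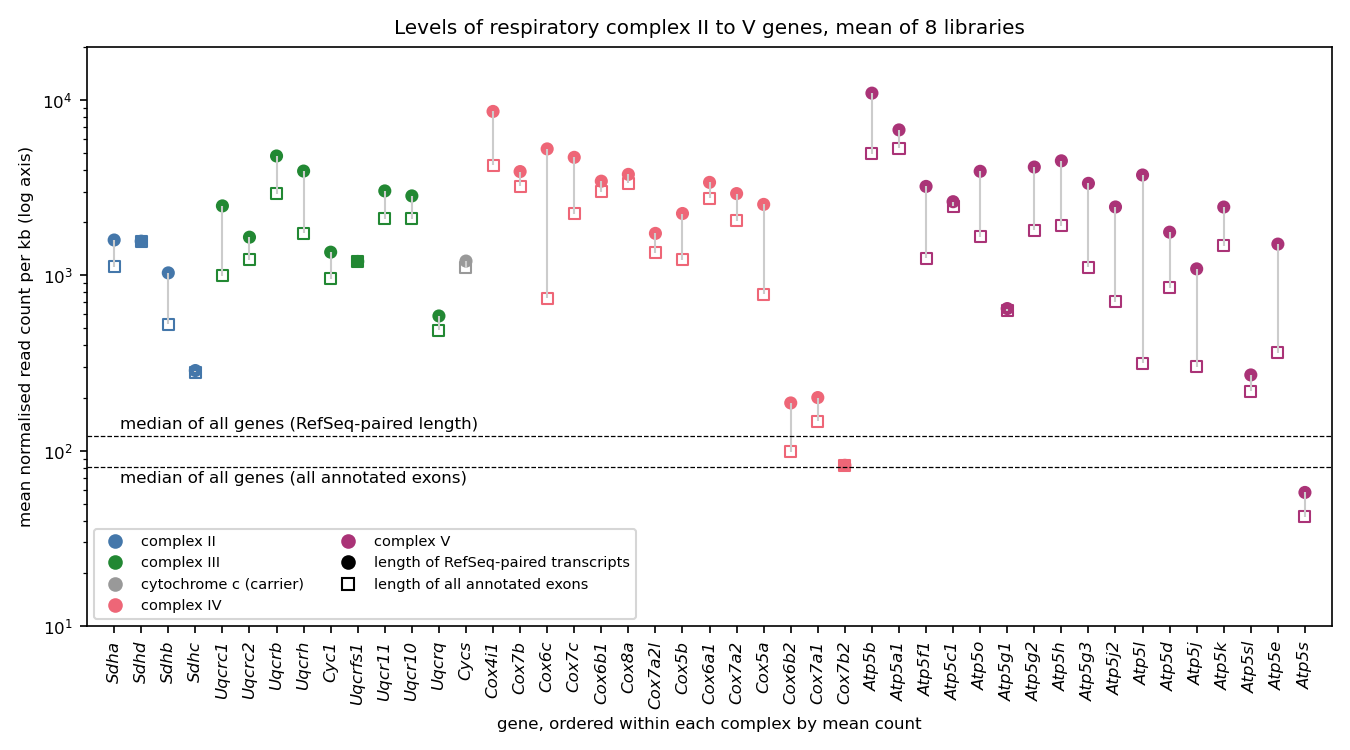
Mean normalised read count per kb (log axis) of the 45 members, grouped and coloured by complex and ordered within each complex by mean count, on the RefSeq scale (filled circles) and the all-exon scale (open squares); dashed lines give the gene medians of 121 and 81.2 per kb. Most members lie far above both lines, Atp5b, Atp5a1 and Cox4i1 are highest, and Cox7b2 and Atp5s are lowest.

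Complex II showed uneven levels among its 4 subunits. Sdha (chromosome 13, 74322254 to 74350280), the flavoprotein that oxidises succinate, had a mean count of 4607, which is 1116 per kb on the all-exon scale and 1588 on the RefSeq scale. Sdhb, the iron-sulphur subunit, had a mean count of 1178, or 526 and 1032 per kb. The membrane anchors Sdhc and Sdhd, which bind ubiquinone together with Sdhb, stood apart from each other. Sdhd had a mean count of 1926 and 1564 per kb on both scales. Sdhc (chromosome 1, 171127165 to 171150603) reached a mean count of 908 and only 280 and 286 per kb. Sdhc was thus the lowest gene of the complex on both scales, with Sdhd at 5.60 and 5.46 times its level and Sdha at 3.99 and 5.54 times. Both scales divide Sdhc by a similar length, 3250 and 3171 bases, against 1231 for Sdhd, so the contrast with Sdhd rests partly on the gene model. Undivided counts put Sdhd at 2.12 times and Sdha at 5.07 times Sdhc.

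Complex III ranged over 6.0 times on the all-exon scale and 8.16 times on the RefSeq scale, from Uqcrq to Uqcrb. Uqcrc1 and Uqcrc2, the core proteins, had mean counts of 4108 and 3126, with levels of 994 and 1225 per kb on the all-exon scale and 2485 and 1648 on the RefSeq scale, so that their order is not settled. The redox subunits were close to each other: Cyc1, cytochrome c1, was at 956 and 1354 per kb and Uqcrfs1, the Rieske iron-sulphur protein, at 1199 on both scales. Cyc1 had a mean count of 2058 and Uqcrfs1 of 1634. The small supernumerary subunits reached the highest levels of the complex. Uqcrb (chromosome 13, 66900617 to 66905378) was highest on both scales at 2922 and 4785 per kb, and its mean count was 2560. Uqcr10 stood at 2106 and 2834 per kb, Uqcr11 at 2100 and 3025, and Uqcrh at 1736 and 3925. Uqcrq, a further small subunit, was lowest on both scales at 487 and 586 per kb, with a mean count of 892.

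Cytochrome c, the soluble carrier between complexes III and IV and a trigger of apoptosis when released, was encoded by Cycs (chromosome 6, 50562563 to 50566538). Its mean count was 3764, with 1106 per kb on the all-exon scale and 1205 on the RefSeq scale. Its transcript is long for this group, 3123 bases on the RefSeq scale. Reads from the windows shared with Gm10053 and other copies may be missing from this value.

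Complex IV combined high levels of its general subunits with low levels of its tissue forms. The 10 general nuclear subunits had a median of 2499 per kb on the all-exon scale and 3598 on the RefSeq scale, and ranged over 5.72 and 3.82 times. Cox4i1 (chromosome 8, 120668222 to 120674207), the largest nuclear subunit, was highest on both scales at 4237 and 8585 per kb, with a mean count of 6567. Cox8a was at 3340 and 3759 per kb and Cox7b at 3216 and 3900, with mean counts of 2067 and 3904. Cox7c, a further small subunit, had a mean count of 2538, with 2244 and 4700 per kb, and is among the genes with copies elsewhere. Cox6c showed how far the gene model matters. Its mean count of 2641 gave 740 per kb over 3567 bases of all exons and 5250 per kb over 503 bases of RefSeq exons. Cox5a and Cox5b, the subunits nearest to the matrix side, were at 778 and 1226 per kb on the all-exon scale and 2535 and 2250 on the RefSeq scale. Cox7a2l, which helps complexes III and IV to join into supercomplexes, had a mean count of 1984, with 1342 and 1733 per kb.

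Within groups of paralogues of complex IV, 1 form held nearly all of the level in 4 of 5 groups. On the all-exon scale Cox4i1 held 99.9% of the Cox4i level, Cox8a 99.4% of the Cox8 level, Cox7b 97.5% of the Cox7b level and Cox6b1 96.8% of the Cox6b level. The minor forms are known from restricted tissues: Cox4i2 from lung, and Cox6b2, Cox7b2 and Cox8c from testis. Cox6b1 had a mean count of 2124, with 3000 and 3437 per kb, and Cox6b2 one of 110, with 98.9 and 187 per kb. Cox7b2 (chromosome 5, 71442824 to 71548205) stood at 82.6 per kb on both scales, with a mean count of 44.8. The Cox7a group was the exception, and it included Cox7a2l, the supercomplex factor named above, which is not counted here as a structural subunit. Cox7a2 held 57.8%, Cox7a2l 38.0% and the heart and muscle form Cox7a1 4.18%, and on the RefSeq scale these shares were 60.2%, 35.7% and 4.14%. Between the structural forms, Cox7a2 held most of the level, with a mean count of 1925 and 2039 and 2921 per kb, against 148 and 201 per kb for Cox7a1. Cox6a1, the general form of its pair, was at 2753 and 3384 per kb with a mean count of 1932, and the muscle forms Cox6a2 and Cox8b were not analysed here.

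**Figure D4:**
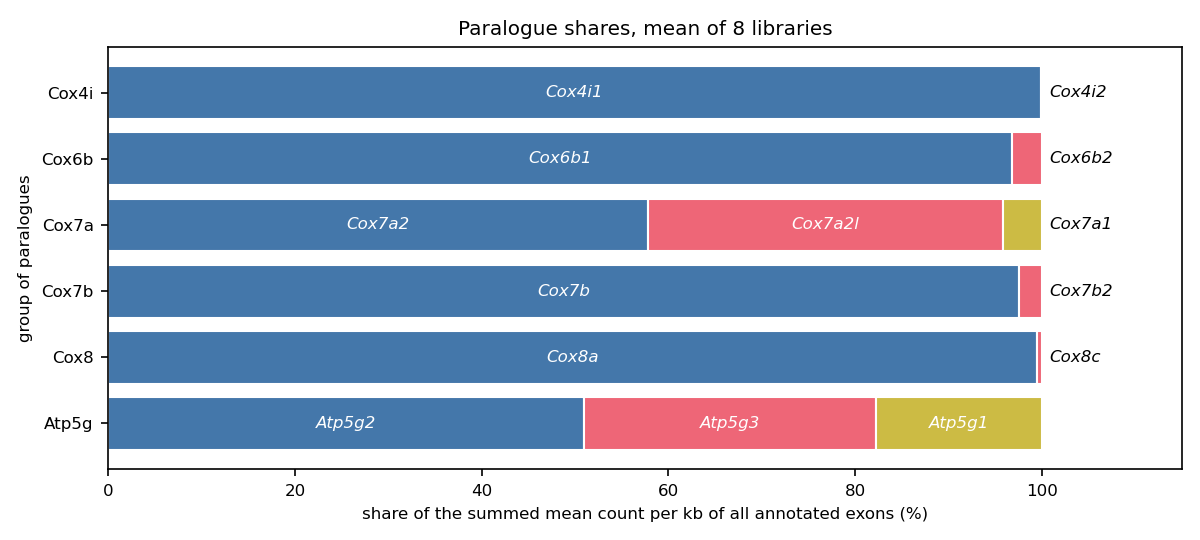
Share of each paralogue in the summed mean count per kb of its group on the all-exon scale (x axis, percent; y axis, group). A single form fills nearly the whole bar in the Cox4i, Cox6b, Cox7b and Cox8 groups. The Cox7a group is divided mainly between Cox7a2 (57.8%) and the supercomplex factor Cox7a2l (38.0%), and the Atp5g group among 3 genes.

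Complex V held the most abundant members. In the catalytic F1 head, Atp5a1 (alpha) and Atp5b (beta; chromosome 10, 128083273 to 128090391) had mean counts of 16649 and 20911. Their levels were 5311 and 4935 per kb on the all-exon scale and 6738 and 10914 on the RefSeq scale, so their order depends on the length used. Each is present in 3 copies per complex, whereas Atp5c1 (gamma), Atp5d (delta) and Atp5e (epsilon) of the central stalk are present in 1. Atp5c1 had a mean count of 4730 and 2479 and 2626 per kb, and Atp5a1 was at 2.14 and 2.57 times its level. Atp5d was at 850 and 1761 per kb and Atp5e at 361 and 1506, with mean counts of 1639 and 634. Atp5e was the lowest F1 gene on both scales, and Atp5b stood at 13.7 and 7.25 times its level.

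The remaining subunits of complex V lay below the F1 alpha and beta genes. In the peripheral stalk, which holds the head still, Atp5h was at 1916 and 4490 per kb, Atp5o (the subunit that confers oligomycin sensitivity) at 1663 and 3914, Atp5f1 at 1254 and 3210 and Atp5j at 300 and 1088. This order was the same on both scales. Among the small membrane subunits, Atp5k was at 1474 and 2448 per kb and Atp5j2 at 708 and 2451. Atp5l ran from 315 per kb over 6443 bases of all exons to 3728 per kb over 544 bases, the widest gap between the scales, 11.8 times. The membrane subunits Usmg5 (Atp5md) and 2010107E04Rik (Atp5mpl), whose names in the table kept them out of the 45, had mean counts of 1726 and 1798. Their levels were 627 and 1477 per kb on the all-exon scale and 4769 and 4912 on the RefSeq scale.

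The c ring drew on all 3 of its genes. Mean counts were 3087 for Atp5g1, 3024 for Atp5g2 and 2419 for Atp5g3. Per length the levels were 628, 1806 and 1109 per kb on the all-exon scale and 646, 4137 and 3341 on the RefSeq scale. Atp5g2 therefore held 51.0% of the summed level, Atp5g3 31.3% and Atp5g1 17.7%, and on the RefSeq scale 50.9%, 41.1% and 7.95%. Without division by length the shares were 35.5%, 28.4% and 36.2%. The low share of Atp5g1 rests on its gene model, in which the exons of RefSeq-paired transcripts add up to 4778 bases, against 731 for Atp5g2 and 724 for Atp5g3. Read placement adds a further limit for Atp5g2, since 86.8% of its windows have copies elsewhere.

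Atp5s and Atp5sl carry Atp5 names but are not structural subunits of complex V: Atp5s is a coupling-factor-like protein and Atp5sl, now Dmac2, acts in complex I assembly. Atp5s (chromosome 12, 69724950 to 69744660) showed the lowest level of all members, 42.1 and 57.8 per kb, from a mean count of 85.9. Atp5sl had a mean count of 659 and 218 and 270 per kb. With both left out, the 15 structural genes of complex V ranged over 17.7 times on the all-exon scale and 16.9 times on the RefSeq scale, with medians of 1254 and 3210 per kb.

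Other genes of the pathway were expressed at lower levels than the subunits. Of 36 assembly factors of complexes II to V, 33 were measured and all 33 were expressed, with a median mean count of 396. Their median per length was 177 per kb on the all-exon scale and 267 on the RefSeq scale, beside 1225 and 2485 for the members. Lrpprc, which stabilises mitochondrial mRNA, had the highest mean count of them, 4761. Atpif1, the inhibitor of ATP hydrolysis by complex V, followed with 2545 and had the highest level per length, 1766 and 4721 per kb. Surf1 and Sco2, assembly factors of complex IV, had mean counts of 373 and 178. Pet117 had the lowest mean count, 42.0, while Lyrm7 had the lowest level per length, 17.1 and 25.1 per kb. The 6 mitochondrially encoded subunits of complexes III to V were not analysed here.

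Regulators of nuclear genes for mitochondrial proteins were unequal in level. Gabpa, an ETS factor, had a mean count of 4170, Yy1 of 2501 and Nrf1 of 1820. Tfam, which packages and transcribes mitochondrial DNA, had a mean count of 2109. Per length, on the all-exon and RefSeq scales, Gabpa was at 733 and 836 per kb and Tfam at 475 and 506. Yy1 was at 390 and 405 per kb and Nrf1 at 177 and 341, so Tfam stood above Yy1 despite its lower mean count. Among the coactivators, Pprc1 had a mean count of 1493 and Ppargc1b of 64.5, while Ppargc1a was at 0.716, under the minimum. Pprc1 was at 238 and 285 per kb and Ppargc1b at 16.2 and 17.6. The orphan receptor Esrra had a mean count of 180, with 41.1 and 80.3 per kb.

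Promoters were searched for 3 short motifs that such regulators are known to bind. The motifs were the NRF1 core CGCANGCG, the ETS motif CCGGAAG and the YY1 motif ATGGCGG, on both strands of windows from 250 bases before to 50 after each start. The promoters came from RefSeq (GRCm38.p6), and 37 of 45 members were matched. The unmatched members were Atp5a1, Cox4i1, Cox6c, Cyc1, Sdhc, Uqcrb, Uqcrc2 and Uqcrq. One promoter per complex and that of Cycs are shown from 130 bases before to 10 after the start, chosen as examples that hold the NRF1 core, with matched motifs in capitals. All are on the minus strand and are written in the direction of transcription.
Sdha, chr13:74350231-74350370: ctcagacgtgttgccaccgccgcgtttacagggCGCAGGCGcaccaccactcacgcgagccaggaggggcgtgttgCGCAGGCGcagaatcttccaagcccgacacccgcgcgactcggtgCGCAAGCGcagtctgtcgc
Uqcr11, chr10:80406812-80406951: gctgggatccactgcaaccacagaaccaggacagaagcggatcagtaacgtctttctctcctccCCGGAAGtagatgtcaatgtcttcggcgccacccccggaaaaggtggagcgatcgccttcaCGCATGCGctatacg
Cycs, chr6:50566560-50566699: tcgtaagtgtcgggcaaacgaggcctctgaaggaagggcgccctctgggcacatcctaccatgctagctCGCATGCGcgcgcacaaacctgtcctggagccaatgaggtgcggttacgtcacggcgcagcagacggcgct
Cox6a1, chr5:115348949-115349088: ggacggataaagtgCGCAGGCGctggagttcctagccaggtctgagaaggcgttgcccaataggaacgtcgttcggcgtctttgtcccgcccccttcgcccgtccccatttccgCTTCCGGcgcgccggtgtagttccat
Atp5c1, chr2:10080423-10080562: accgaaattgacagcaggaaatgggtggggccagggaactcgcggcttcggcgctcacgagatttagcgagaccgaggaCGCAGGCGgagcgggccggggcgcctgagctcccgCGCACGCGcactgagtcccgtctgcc
The Sdha window held the NRF1 core 3 times, beginning 97, 54 and 9 bases before the start. Uqcr11 held an ETS motif 66 bases and an NRF1 core 5 bases before the start. Cycs held the NRF1 core at 61 bases, and Cox6a1 held it at 116 bases together with an ETS motif on the other strand at 16 bases. Atp5c1 held the NRF1 core at 51 and 16 bases.

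Over all matched members the NRF1 core occurred in 17 of 37 (45.9%), beside 19.2% of 10788 matched expressed genes and 8.21% of all 32851 promoters. The ETS motif occurred in 12 of 37 (32.4%), beside 19.5% and 8.86%. Its higher share among members depended on the strands searched, since on the forward strand alone it was 8.11%, beside 11.0% of the matched genes. The YY1 motif occurred in 3 of 37 (8.11%), beside 9.10% and 4.05%. At least 1 motif was present in 23 of 37 members (62.2%) and in 39.7% of the matched genes. The median GC content was 56.7% for the members' promoters and 52.7% for all promoters, and its part in these shares was not tested. No GC median was computed for the promoters of the matched expressed genes alone. A match describes letters in the window and is not a measured binding site.

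The members were also short and compact genes. The median length of the longest protein-coding transcript was 838 bases, beside 3169 over 13056 expressed protein-coding genes. The median number of exons was 4 against 9, and the median coding length 387 bases against 1395. A coding length under 600 bases was found in 32 of 45 members (71.1%) and in 13.4% of the protein-coding genes. Exon density ran the other way, with 5.17 exons per kb of transcript against 3.24. By complex, the median transcript length was 2066 bases for complex II, 1363 for complex III, 652 for complex IV and 955 for complex V. Complex II, the lowest in median level per kb, thus had the longest median transcript, and complex IV, the highest, had the shortest. Length is the divisor of the level per kb, so level and length are not independent and their pairing was not tested. Nor did it hold for each gene: Sdhb and Sdhd of complex II had 1142 and 1231 bases, and Atp5g1 of complex V had 4715.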

How the data were processed

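Libraries were made with a stranded total RNA kit and read as pairs of 81 bases. The labels describe the molecule as total RNA but their extraction text describes chromatin RNA. As the study's methods and the labels' processing notes state, the authors removed ribosomal RNA reads with bowtie2, aligned pairs with STAR to mm10 with strain variants masked, kept unique alignments, removed duplicates with Picard MarkDuplicates and counted with TEtranscripts at default settings. Default counting ignores strand, whereas the deposited table's name carries the word reverse. Duplicate removal without molecular identifiers can lower counts of abundant short transcripts, and its effect was not tested.

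The value used is a signal deposited by the authors: read counts divided by size factors and averaged over all 8 libraries, called the mean count. The table's other columns hold the authors' comparison of the groups (log2 fold changes, standard errors, statistics and p-values) and were not used. No value per library was analysed here, so no group was compared, no replicate was averaged and no test was run.

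Gene names were matched to GENCODE vM21 (GRCm38) with Python 3.11.15, pandas 2.3.3 and numpy 2.4.6: 16662 matched directly, 18 more had 2 records, 721 matched through an older symbol, and 196 were left without a match, so that 17401 (98.9%) had a position. Percentiles are shares of the expressed genes (mean count 10 or more) that had a lower level. The window search was tested on simulated sequences. The members and lists were chosen with earlier results of these data known. Named genes are all members, with the 3 most and 3 least abundant per kb of each complex and all paralogues above the minimum in full. Genes from the assembly, regulator and marker lists were picked as examples after their values were seen.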

Additional observations from a re-analysis of the deposited data

How the results depend on the processing

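No value rests on more than 1 mean per gene, so depth and spread between libraries limit each level in a way that could not be measured. No paired analysis was possible because the deposited table gives 1 mean over all libraries and no value per replicate, and for the same reason no library could be left out. The RefSeq scale was added after the data were seen. In place of 95.4, the members' median percentile was 96.9 with the longest protein-coding transcript, 96.7 with RefSeq-paired transcripts, 96.3 with no minimum, 93.8 with a minimum of 100 and 95.5 among protein-coding genes. With the longest transcript the medians of complexes II to V were 1298, 2485, 3153 and 2726 per kb, and with RefSeq-paired transcripts 1298, 2485, 3153 and 2626. Means in place of medians were 872, 1525, 1803 and 1492 per kb. Complex IV gave 1284 with no minimum, 2142 with a minimum of 100 and 2039 with structural subunits only, and complex V 1182 with that minimum and 1254 with structural subunits. Complex II remained lowest and complex IV highest under each of these alternatives, all of which divide by length. Undivided, the median mean counts of complexes II to V were 1552, 2058, 1965 and 2419. Complex II was then still lowest, but complex V was highest and complex III also lay above complex IV. The longest transcript, RefSeq-paired transcripts and undivided counts gave shares of 50.1%, 50.9% and 35.5% for Atp5g2, 94.8%, 94.8% and 95.1% for Cox6b1, 60.3%, 60.2% and 48.3% for Cox7a2, 97.9%, 97.9% and 98.9% for Cox7b, and 99.5%, 99.5% and 99.6% for Cox8a. Undivided counts put Atp5g1 above Atp5g2 and Cox7a2l above Cox7a2. On the forward strand only, the ETS motif fell to 8.11% of members, beside 11.0% of genes. The median length of all exons was 1831 bases in place of 838.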
